A study of Homo sapiens with 9 samples.

Results

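The 47 genes described here carry out or time DNA replication: they license origins, start and run the replicative helicase, copy and seal DNA, supply deoxynucleotides and open S phase. They were taken by symbol from the gene rows of 9 RNA sequencing libraries of LAPC4, an androgen-responsive human prostate cancer cell line, and kept where at least 3 libraries held 10 or more counts. All 47 of the 47 symbols met that rule, out of 60325 gene rows, and all 47 were among the 16796 genes tested. The series concerns UGT2B28, an enzyme of the endoplasmic reticulum that attaches glucuronic acid to steroids, androgens included. The 3 rescue libraries came from knockdown cells in which UGT2B28 was overexpressed, the 3 knockdown-labelled libraries from cells labelled as UGT2B28 knockdown, and the 3 control libraries from cells titled NT. All 9 were taken at day 30 from cells kept in IMDM with 15% fetal bovine serum. Selection was with 3 ug/mL puromycin for the knockdown and with 1 mg/mL G418 for the rescue, and the labels give none for the controls, so an effect of the drugs cannot be told apart from that of the construct. The knockdown and rescue titles carry 1 knockdown name, KD4, so effects of that construct other than on UGT2B28 cannot be told apart either. Nothing in the labels says that replicates were separate cultures, and p-values therefore reflect library-to-library spread only, part of which may be technical.

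In dividing cells the origin recognition complex, CDC6 and CDT1 load the MCM helicase onto DNA in G1. CDC45 and the GINS complex then switch the helicase on in S phase, primase and the polymerases copy both strands, and PCNA, the sliding clamp, holds the polymerases on the template. Most of these genes are transcribed in a wave at the G1/S boundary that the E2F factors drive, and their summed mRNA is widely used as a measure of the cycling share of a culture. In bulk RNA, fewer cells in S phase and less mRNA per cell cannot be told apart.

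The libraries held 8132206 to 14185252 gene counts, and a member had from 64 to 5044 counts in a single library. UGT2B28 had 75.1, 92.9 and 53.6 CPM (counts per 1000000, scaled between libraries) in the rescue libraries, against 8.48, 6.18 and 3.05 CPM in the knockdown-labelled and 5.12, 5.10 and 7.80 CPM in the control libraries. Its mRNA was 12.6-fold higher in rescue than in knockdown-labelled cells (log2 fold change 3.66 ± 0.332, SE, edgeR adjusted p = 0.00126), but no decrease was detected in the knockdown-labelled against the control libraries, whose values overlapped (log2 fold change -0.04 ± 0.349, edgeR adjusted p = 0.957), so the label knockdown is used here as a name. The knockdown-labelled libraries differed among themselves: mitochondrial genes took 15.1%, 15.8% and 10.2% of counts, where rescue libraries had 5.79% to 7.90% and control libraries 7.62% to 8.57%, and ribosomal protein genes took 11.98%, 11.5% and 6.66% in the knockdown-labelled libraries, against a range of 6.94% to 7.91% over rescue and 8.08% to 8.35% over control libraries. Their 95% Wilson intervals were at most 0.0459 percentage points wide and cover counting error only. Averaged over the 9 libraries, all 10 luminal prostate markers were above 1 CPM, 0 of 5 leukocyte markers were (CD14 reached 1.45 CPM in rescue library 1), and 4 of 6 fibroblast, 2 of 4 basal and 2 of 4 endothelial markers were. Summed fibroblast markers spanned 35.4 to 114 CPM in rescue, 35.7 to 38.5 CPM in knockdown-labelled and 16.8 to 67.3 CPM in control libraries. The part of these marker levels and of the mitochondrial and ribosomal shares in the results was not tested.

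Scaled between libraries and read gene by gene, the rescue libraries were the low ones for most of the 47. As an unscaled sum, the 47 took 0.327%, 0.324% and 0.292% of gene counts in rescue libraries. The shares were 0.262%, 0.263% and 0.394% in knockdown-labelled and 0.372%, 0.370% and 0.351% in control libraries. Knockdown-labelled libraries 1 and 2 were thus lowest by that sum. After scaling, the medians of lagging-strand genes and of chromatin assembly and fork checkpoint genes were also lower there than in any rescue library. The group mean was lowest in rescue for 37 genes (78.7%, against 34.8% of all tested genes), and for 12 genes all 3 rescue libraries lay below all 6 others (25.5%, against 5.46% of all tested genes). Those 12 were ORC6, CDC6, MCM3, GINS1, GINS3, PRIM2, PCNA, RFC2, RFC5, RPA2, CCNE2 and CHAF1B. No gene of the 47 had all rescue libraries above the 6 others (6.35% of all tested genes). The knockdown-labelled libraries were the highest 3 for ORC6, PCNA, RFC5, RRM2 and CCNE2 (10.6%, against 7.36% of all tested genes), and the lowest 3 for MCM7, FEN1 and E2F1 (6.38%, against 6.44%), so both shares were near those over all genes. Per kilobase of exon, TK1 (139.5 CPM per kb in the control mean), PCNA (101 CPM per kb) and MCM7 (78.3 CPM per kb) were the most abundant members, and POLA2 (1.59 CPM per kb) and POLA1 (2.44 CPM per kb) the least.

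**Figure D1:**
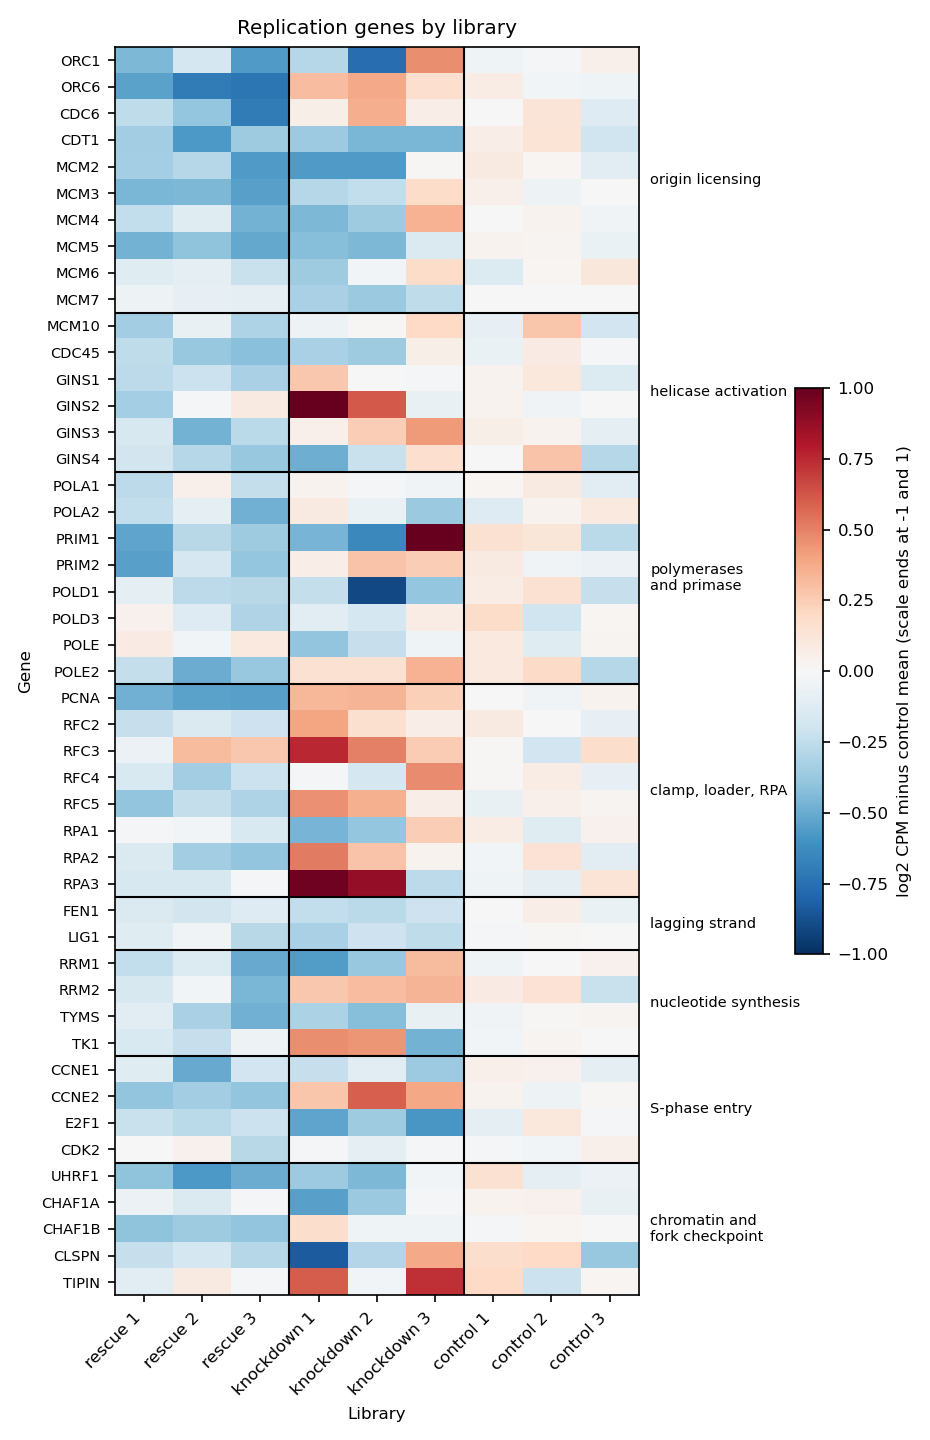
Each cell is the log2 CPM of 1 gene (rows, by role) in 1 library (columns) minus that gene's mean over the 3 control libraries, on a scale that ends at -1 and 1. The rescue columns are blue for most genes, and knockdown-labelled library 3 differs in colour from libraries 1 and 2 for genes such as PRIM1, ORC1, CLSPN, RPA3 and TK1.

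The comparison of rescue with knockdown-labelled cells asks what overexpressing UGT2B28 changed on the knockdown background. Of the 47 genes, 11 fell and 0 rose, where 5.39% of all tested genes fell and 4.44% rose (9.83% in either direction). At an unadjusted p under 0.05, 17 were lower (15.1% of all tested genes) and 2 higher (13.1% of all tested genes). The 11 were ORC6 and CDC6 of origin licensing, the primase and polymerase subunits PRIM2 and POLE2, the clamp PCNA, its loaders RFC2 and RFC5, the single-strand binding subunit RPA2, the ribonucleotide reductase subunit RRM2, the S-phase cyclin gene CCNE2 and the chromatin assembly gene CHAF1B. The median log2 fold change over the 47 was -0.22 (-0.0023 over all tested genes), and 38 of 47 were negative, where 50.3% of all tested genes were. The groups did not overlap, with rescue lower, for 15 genes (14% of all tested genes), and with rescue higher for 4 (14.6% of all tested genes).

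In origin licensing, ORC6 was the member with the smallest p. ORC6 encodes the smallest subunit of the origin recognition complex and lies on chromosome 16 (46689643 to 46698394, GRCh38, plus strand). It had 40.1, 35.7 and 35.2 CPM in rescue, 71.9, 75.8 and 65.2 CPM in knockdown-labelled and 61.1, 56.9 and 56.4 CPM in control libraries. The 3 groups did not overlap, with rescue lowest and knockdown-labelled highest. ORC6 mRNA in rescue was 0.521 times that in knockdown-labelled cells (log2 fold change -0.94 ± 0.112, SE, 95% interval -1.19 to -0.69, edgeR adjusted p = 0.00641). CDC6, the loader that works with CDT1 to place the MCM ring (chromosome 17, 40287633 to 40304657, plus strand), had 65.7, 59.8 and 48.1 CPM in rescue, 81.3, 101 and 82.04 CPM in knockdown-labelled and 78.1, 85.4 and 71.6 CPM in control libraries. All rescue values lay below all others, while knockdown-labelled and control libraries overlapped (rescue against knockdown-labelled -0.60 ± 0.145, edgeR adjusted p = 0.0290). The other 8 licensing genes did not pass, with log2 fold changes between -0.38 for MCM3 and 0.24 for MCM7, both subunits of the helicase ring. ORC1 (-0.28), MCM4 (-0.16), MCM5 (-0.13), MCM6 (-0.10), MCM2 (-0.04) and CDT1 (0.0041) lay between them.

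The clamp and its partners held 4 of the 11 calls among 8 genes, with a median of -0.50. PCNA (chromosome 20, 5114953 to 5126626, minus strand) had 106, 102 and 102 CPM in rescue, 187, 187 and 175 CPM in knockdown-labelled and 148, 145 and 152 CPM in control libraries. Its groups were fully separate in the same order as for ORC6 (rescue against knockdown-labelled -0.82 ± 0.102, 95% interval -1.05 to -0.60, edgeR adjusted p = 0.00698). RFC5, a small subunit of the clamp loader on chromosome 12 (118013588 to 118033130, plus strand), had 33.7, 37.6 and 35.9 CPM in rescue, 61.1, 56.8 and 46.6 CPM in knockdown-labelled and 42.2, 45.9 and 45.2 CPM in control libraries. The rescue libraries were the lowest 3 and the knockdown-labelled the highest 3 (-0.62 ± 0.126, edgeR adjusted p = 0.0181). RFC2, another loader subunit, had 68.3, 72.8 and 69.4 CPM in rescue, 106, 89.8 and 84.2 CPM in knockdown-labelled and 85.2, 79.9 and 76.00 CPM in control libraries. Rescue lay below every other library, and the call was just inside the threshold (-0.41 ± 0.116, edgeR adjusted p = 0.0495). RPA2, the middle subunit of the RPA trimer that coats single-stranded DNA, had 38.02, 32.97 and 31.99 CPM in rescue, 60.3, 51.3 and 43.1 CPM in knockdown-labelled and 41.3, 46.4 and 38.9 CPM in control libraries, and rescue lay below every other library (-0.58 ± 0.146, edgeR adjusted p = 0.0337). RFC3 (-0.34), RFC4 (-0.35), RPA1 (0.10) and RPA3 (-0.74) did not pass; RPA3, the smallest RPA subunit, was spread widely within the knockdown-labelled group, as described below.

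Among 8 polymerase and primase genes, PRIM2 and POLE2 fell. PRIM2, the large primase subunit, had 19.2, 24.9 and 21.5 CPM in rescue, 29.5, 34.3 and 33.4 CPM in knockdown-labelled and 29.9, 27.5 and 26.98 CPM in control libraries, with rescue below all others (-0.57 ± 0.138, edgeR adjusted p = 0.0296). POLE2, a non-catalytic subunit of the leading-strand polymerase epsilon, had 17.7, 14.8 and 16.00 CPM in rescue, 23.3, 23.2 and 26.7 CPM in knockdown-labelled and 22.4, 23.9 and 17.1 CPM in control libraries. Rescue and knockdown-labelled values were separate, and control library 3 overlapped with rescue (-0.59 ± 0.160, edgeR adjusted p = 0.0428). The catalytic subunit gene POLE was at 0.27 and did not pass, and POLA1, POLA2, PRIM1, POLD1 and POLD3 lay between -0.55 and 0.28.

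CCNE2 encodes a cyclin E, the partner of CDK2 at the start of S phase. It had 27.6, 28.4 and 27.5 CPM in rescue, 44.01, 54.9 and 47.6 CPM in knockdown-labelled and 37.3, 35.1 and 36.5 CPM in control libraries. The groups were again fully separate, with rescue lowest (-0.81 ± 0.119, 95% interval -1.07 to -0.55, edgeR adjusted p = 0.00866). The other genes of S-phase entry did not pass: CCNE1, the second cyclin E gene, was at -0.03, CDK2 at -0.03, and E2F1, an activating E2F factor, at 0.25. RRM2, the regulated subunit of ribonucleotide reductase, had 92.5, 102 and 75.5 CPM in rescue, 125, 128 and 131 CPM in knockdown-labelled and 109.6, 115 and 88.7 CPM in control libraries (-0.51 ± 0.140, edgeR adjusted p = 0.0443). Its knockdown-labelled values were above all others, and its rescue and control values overlapped. The thymidine salvage gene TK1 (-0.35), the other reductase subunit RRM1 (-0.13) and thymidylate synthase TYMS (-0.03) did not pass. CHAF1B, a subunit of the CAF-1 complex that sets histones behind the fork, had 49.3, 50.99 and 49.7 CPM in rescue, 73.8, 63.5 and 63.3 CPM in knockdown-labelled and 64.6, 66.1 and 65.03 CPM in control libraries, with rescue lowest and the other groups overlapping (-0.42 ± 0.105, edgeR adjusted p = 0.0344). Its partner CHAF1A was at 0.22, the maintenance methylation factor UHRF1 at -0.22, and the fork checkpoint genes CLSPN and TIPIN at -0.08 and -0.48; these 4 did not pass.

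Helicase activation had 0 calls among 6 genes although all 6 were negative, with a median of -0.33. GINS3, a subunit of the 4-part GINS complex and the member just outside the threshold, had 14.3, 11.5 and 13.2 CPM in rescue, 16.6, 18.98 and 21.5 CPM in knockdown-labelled and 16.7, 16.3 and 14.98 CPM in control libraries (-0.55 ± 0.159, edgeR adjusted p = 0.0532). The rescue values lay below all others. GINS2 (-0.66), GINS1 (-0.36), MCM10 (-0.30), CDC45 (-0.16) and GINS4 (-0.13) did not pass. The lagging-strand list, of 2 genes, was the only role list with a positive median (0.10), while 9 of the 47 genes were positive. FEN1, the flap nuclease, was at 0.09 and LIG1, the ligase, at 0.12, and neither passed. LIG1 had 53.05, 56.4 and 47.7 CPM in rescue, 46.2, 50.1 and 48.5 CPM in knockdown-labelled and 57.4, 58.2 and 57.95 CPM in control libraries, and its rescue and knockdown-labelled values overlapped. With length and GC content corrected for, LIG1 turned to -0.10.

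**Figure D2:**
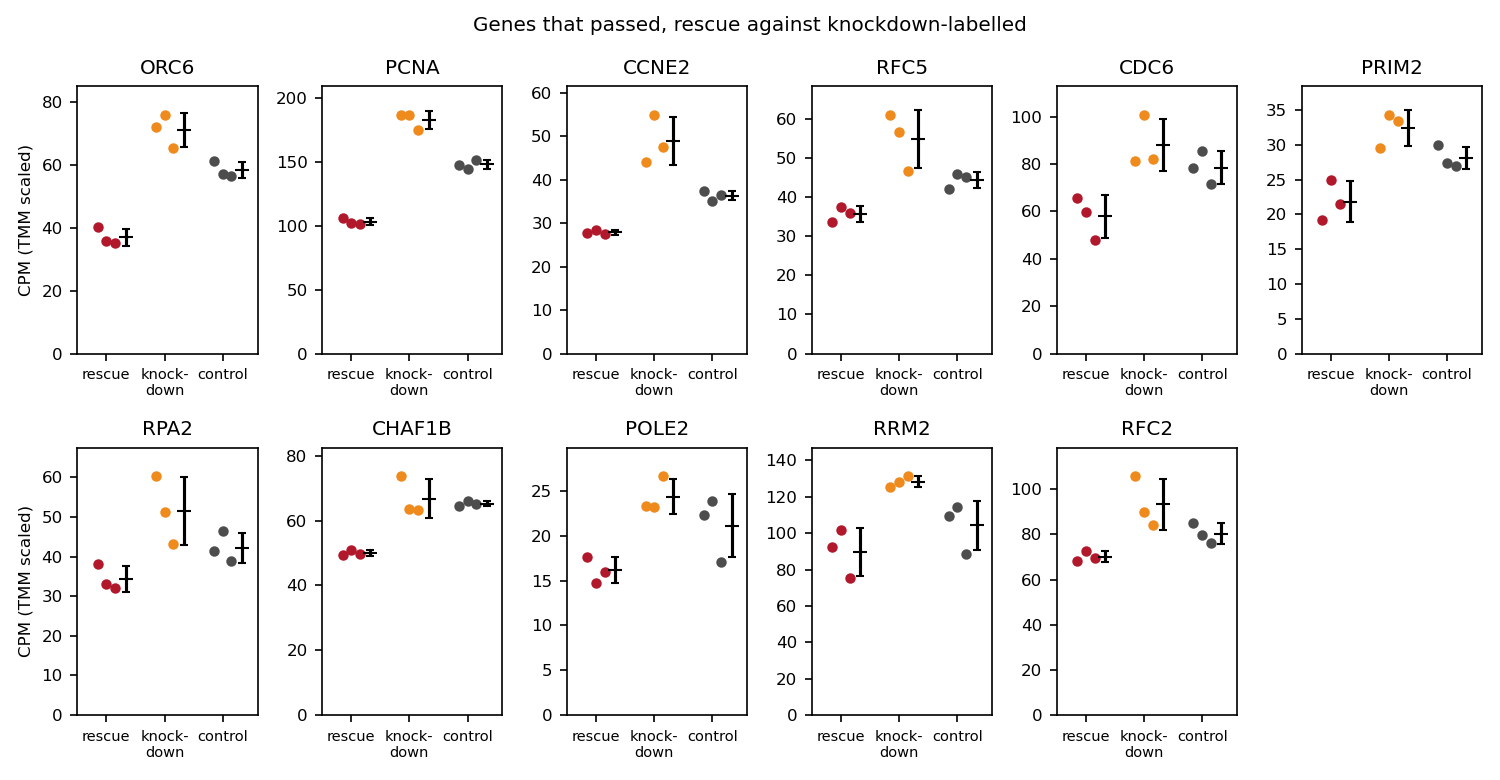
CPM of the 11 genes that fell in rescue against knockdown-labelled cells, on axes from 0, with 1 point per library (left to right, replicates 1 to 3) and a bar for the mean ± SD of each group. Rescue points lie below all knockdown-labelled points in each panel, and in the ORC6, PCNA, RFC5 and CCNE2 panels the control points lie between them.

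How firm these calls were differed between genes. ORC6, PCNA and CCNE2 passed in each of the 9 fits that left out 1 library, and the count fell to 3 in 5 of those fits (without knockdown-labelled library 1 or 2, or any rescue library), to 4 without control library 1 or 2 and to 7 without control library 3. Over all tested genes 0.249% to 1.35% fell in the 5 fits with 3 calls, 2.6% and 2.44% in those with 4 and 3.24% in that with 7. Without knockdown-labelled library 3 the count was 22: 18 genes were lower (38.3%, against 20.4% of all genes tested in that fit) and 4 higher (8.51%, against 18.6%). The median of the 47 in that fit was -0.10, and 29 were negative. With library 3 as the only knockdown-labelled library the median was -0.31, and 35 were negative. Calls are not counted there, because that group then has no spread of its own. The sign differed between these fits for 18 of the 47 genes, while 23 were negative and 6 positive in both. TK1 was at -0.60 without library 3 and 0.35 with library 3 alone. A fit of the 2 compared groups alone made 0 calls, where 0.0183% of all genes tested in it fell and 0.0244% rose. Without scaling factors the median of all tested genes moved to 0.24 and that of the 47 to -0.0037. In that fit 3 genes passed, ORC6 and PCNA lower (4.26%, against 1.37% of all tested genes) and E2F1 higher (2.13%, against 7.9%). The medians of licensing (0.06), polymerase (0.12), nucleotide (0.01) and S-phase entry (0.23) genes turned positive. Each of the 11 genes stayed negative, and the median of the clamp list moved from -0.50 to -0.23.

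Promoters of the 4 genes of smallest p with an entry in the RefSeq promoter table are shown because members of this list are textbook E2F targets. Each line gives the 250 bases before the RefSeq start site on GRCh38.p14, 5′ to 3′ on the gene's strand, with capitals for the letters CCAAT or for an E2F form (TTTCCCGC, TTTCGCGC, TTTGCCGC or TTTGGCGC), read on either strand, so that ATTGG is CCAAT on the other strand. ORC6 is at chr16:46689409-46689658 (plus strand), PCNA at chr20:5126623-5126872 (minus), RFC5 at chr12:118016453-118016702 (plus) and CDC6 at chr17:40287629-40287878 (plus). The RefSeq starts differ from the gene bounds given above. By those bounds the RFC5 stretch lies inside the gene, and so does the CDC6 stretch except for its first few bases.
ORC6: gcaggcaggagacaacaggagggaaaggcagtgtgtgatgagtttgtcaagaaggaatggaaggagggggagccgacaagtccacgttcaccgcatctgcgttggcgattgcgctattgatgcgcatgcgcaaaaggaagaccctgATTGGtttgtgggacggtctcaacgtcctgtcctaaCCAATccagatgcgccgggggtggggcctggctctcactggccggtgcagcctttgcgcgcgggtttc
PCNA: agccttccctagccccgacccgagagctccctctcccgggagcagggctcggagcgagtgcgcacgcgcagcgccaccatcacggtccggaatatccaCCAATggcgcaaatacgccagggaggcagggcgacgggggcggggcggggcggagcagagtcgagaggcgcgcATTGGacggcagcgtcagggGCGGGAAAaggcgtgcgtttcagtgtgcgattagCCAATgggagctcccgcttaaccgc
RFC5: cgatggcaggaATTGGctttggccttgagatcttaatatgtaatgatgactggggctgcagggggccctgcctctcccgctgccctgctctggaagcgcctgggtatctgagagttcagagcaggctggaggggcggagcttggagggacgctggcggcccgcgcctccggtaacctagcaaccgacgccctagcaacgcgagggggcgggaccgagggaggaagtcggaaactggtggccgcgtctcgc
CDC6: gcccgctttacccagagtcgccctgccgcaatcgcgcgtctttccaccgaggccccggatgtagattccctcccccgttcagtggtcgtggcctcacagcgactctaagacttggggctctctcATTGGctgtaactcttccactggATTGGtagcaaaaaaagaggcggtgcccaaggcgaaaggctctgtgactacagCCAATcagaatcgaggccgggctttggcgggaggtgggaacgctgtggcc

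PCNA held an E2F form 59 to 52 bases before the start, on the other strand, and 3 CCAAT boxes. CDC6 held 3 CCAAT boxes in the part shown and an E2F form that begins at base 8 after the start, outside it. ORC6 held 2 CCAAT boxes and RFC5 held 1, and neither held an E2F form in the window of 250 bases before to 50 after the start. Over that window, 39 of the 47 genes matched a RefSeq promoter, and MCM4, MCM5, GINS4, POLD3, RPA2, RPA3, CCNE2 and CDK2 are named only. An E2F form was in 20 of 39 (51.3%), against 3.31% of all 35116 promoters of the same length and 4.10% of those of protein-coding genes. CCAAT was in 23 of 39 (59.0%, against 34.6% of all and 34.7% of protein-coding). The GC box GGGCGG was in 29 (74.4%, against 45% of all and 56.3% of protein-coding). TTTGAA, the core of the cell cycle homology element of mitotic genes, was in 1 (2.56%, against 15.2% of all and 12.4% of protein-coding). All were searched on both strands, and GGGCGG can share letters with an E2F form, as it does in PCNA. The 20 genes with an E2F form had a median of -0.15 in rescue against knockdown-labelled cells and held 3 of the calls, and the 19 without had a median of -0.35 and held 6; in rescue against control the medians were -0.27 and -0.26.

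Rescue set against control compares cells that overexpress UGT2B28 on the knockdown background with control cells. UGT2B28 mRNA was 12.2-fold higher in rescue than in control cells (log2 fold change 3.61 ± 0.329, SE, edgeR adjusted p = 0.00267). Taken gene by gene, 0 of 47 genes passed, where 0.00595% of all tested genes passed as lower and 0.143% as higher. Yet 45 of 47 fold changes were negative (51% of all tested genes), with a median of -0.27 (-0.0066 over all), and the direction of that median held under each setting run. At an unadjusted p under 0.05, 16 genes were lower (4.24% of all tested genes) and 0 were higher (6.3% of all tested genes). Rescue lay below control without overlap for 29 genes (13.6% of all tested genes) and above it for 0 (12.8% of all tested genes). The 2 positive genes were RFC3 (0.18) and POLE (0.05).

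Licensing genes were the lowest list, with all 10 negative and a median of -0.41. ORC6 (-0.65 ± 0.112, edgeR adjusted p = 0.0592) and PCNA (-0.52 ± 0.102, edgeR adjusted p = 0.0759) had the smallest p. MCM3 had 143, 144 and 134 CPM in rescue, 161, 166 and 223 CPM in knockdown-labelled and 203, 189.8 and 196 CPM in control libraries, and MCM5 had 40.7, 42.7 and 39.6 CPM in rescue, 41.99, 41.4 and 51.03 CPM in knockdown-labelled and 57.99, 57.7 and 54.2 CPM in control libraries. For both helicase subunits rescue lay below control without overlap (MCM3 -0.48 ± 0.138, MCM5 -0.47 ± 0.117). MCM2, a further subunit, had 99.7, 104 and 85.2 CPM in rescue, 85.1, 85.4 and 127 CPM in knockdown-labelled and 134, 128 and 117 CPM in control libraries. Knockdown-labelled libraries 1 and 2 were as low as rescue library 3 for MCM2, while library 3 was as high as control (rescue against control -0.40 ± 0.164). CDT1, which brings the MCM ring to the origin, had 39.6, 33.7 and 39.3 CPM in rescue, 39.2, 36.5 and 36.7 CPM in knockdown-labelled and 52.6, 55.3 and 43.8 CPM in control libraries, so both other groups lay below control (rescue against control -0.43 ± 0.127). UHRF1 had 58.8, 52.04 and 54.9 CPM in rescue, 60.3, 57.02 and 76.2 CPM in knockdown-labelled and 86.4, 73.1 and 74.5 CPM in control libraries, with rescue below control throughout (-0.50 ± 0.135). CDC6 (-0.44), CCNE2 (-0.38), CHAF1B (-0.38), PRIM2 (-0.36) and RFC5 (-0.32) completed the 12 genes of smallest p; the edgeR adjusted p of the 10 after ORC6 and PCNA ran from 0.158 for MCM5 to 0.426 for MCM2.

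The count of 0 depended on the knockdown-labelled libraries, which share the estimate of spread but are not part of this difference. Fitted from rescue and control libraries alone, 10 genes fell (21.3%, against 1.95% of all genes tested in that fit): ORC6, CDC6, CDT1, MCM2, MCM3, MCM5, PCNA, CCNE2, UHRF1 and CHAF1B. The same 10 passed without knockdown-labelled library 3 and without libraries 1 and 2, where 2.86% and 1.89% of all genes tested fell. DESeq2 called 3 genes (ORC6, PCNA and MCM5), all lower (6.38%, against 0.5% of all tested genes).

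**Figure D3:**
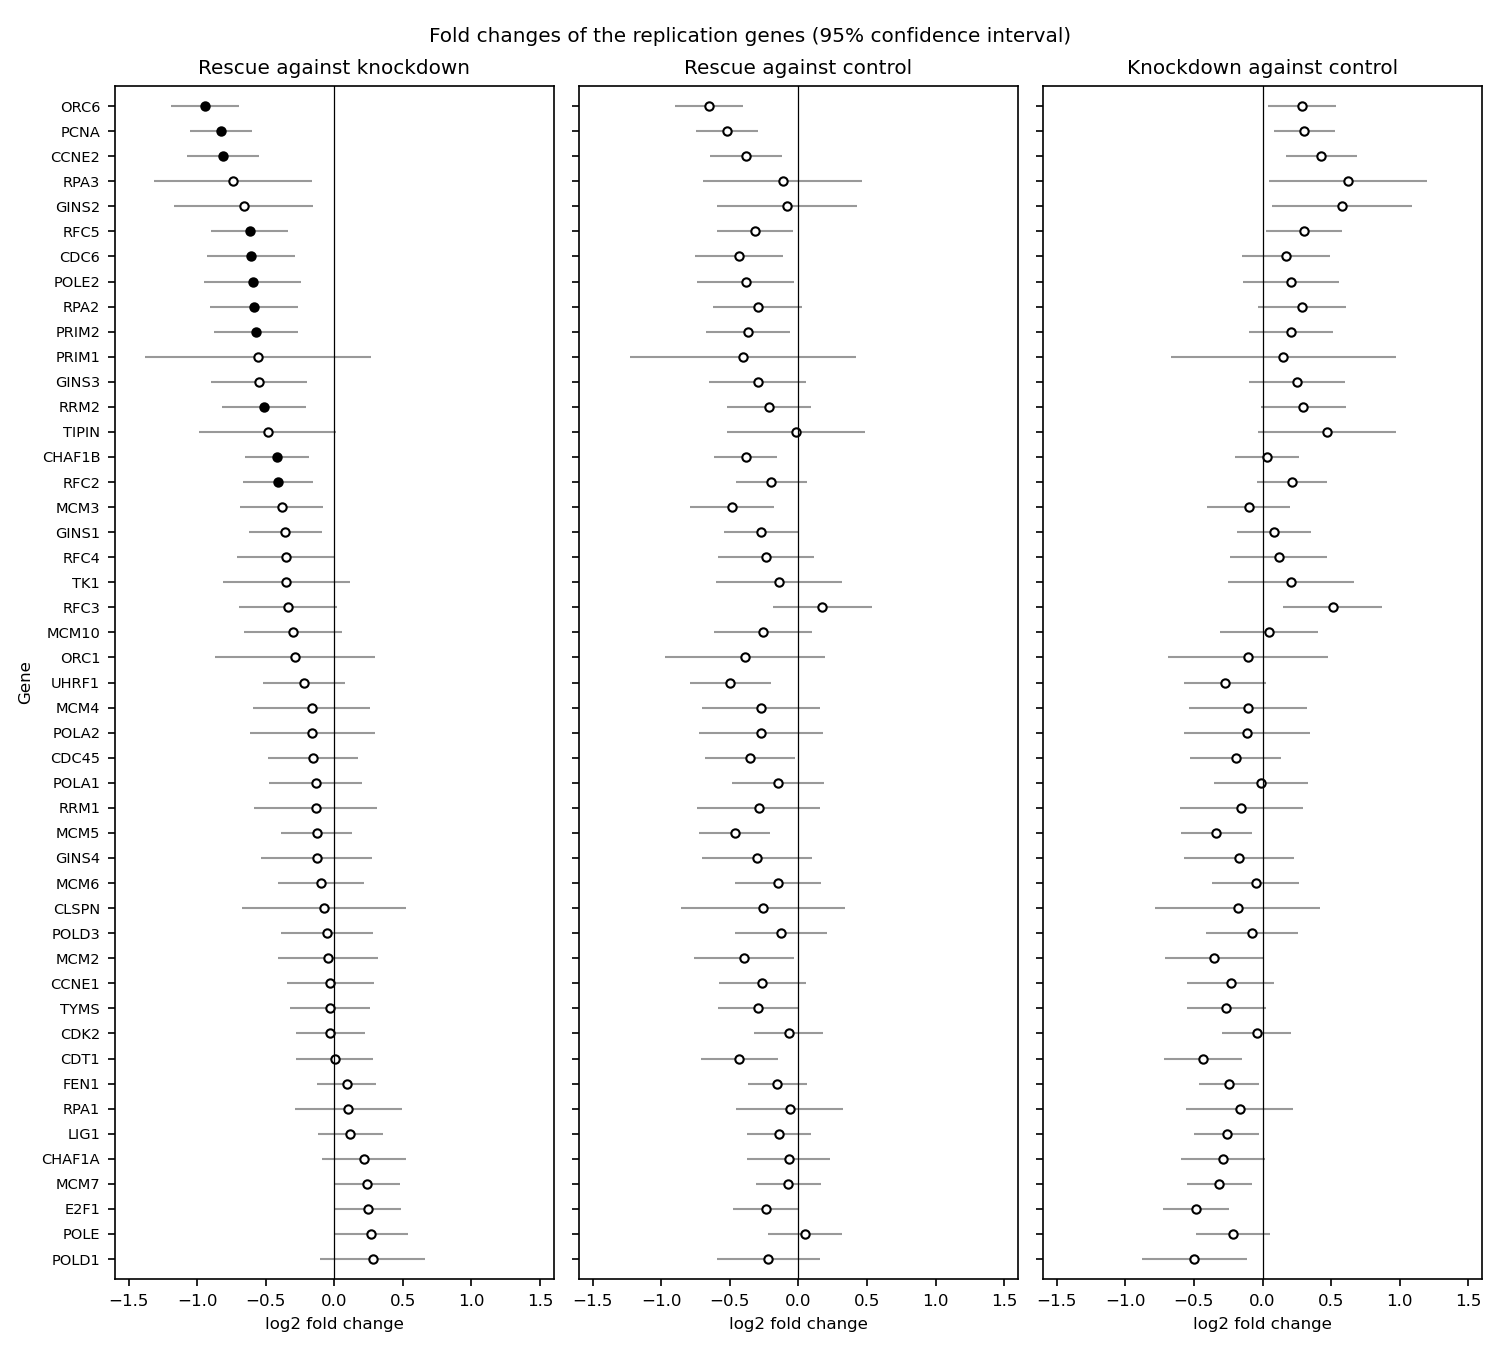
Log2 fold change (x axis) with its 95% confidence interval for the 47 genes (y axis, ordered by rescue against knockdown-labelled) in the 3 comparisons. Filled points passed at an adjusted p under 0.05: 11 in rescue against knockdown-labelled and 0 in each of the others; 45 of 47 points lie left of 0 in rescue against control.

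Knockdown-labelled against control asks what the knockdown construct changed. Again 0 of 47 genes passed, where 0% of all tested genes passed as lower and 0.00595% as higher, and the fold changes were split, 21 positive and 26 negative (48.6% of all tested genes), with a median of -0.05 (0.02 over all tested genes). At an unadjusted p under 0.05, 7 genes were higher (11.3% of all tested genes) and 7 lower (7.81% of all tested genes). The lists differed: 7 of 8 clamp, loader and RPA genes were positive (median 0.29), and 8 of 10 licensing genes were negative (median -0.11). Without scaling factors, the median of all tested genes moved to -0.21, that of the clamp list to 0.05 and that of the licensing list to -0.28, and E2F1 passed as lower (-0.72, edgeR adjusted p = 0.0458). This comparison shares the control libraries with the last one and the knockdown-labelled libraries with the first.

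E2F1 had the smallest p, with 81.2, 78.4 and 81.7 CPM in rescue, 65.7, 74.2 and 63.3 CPM in knockdown-labelled and 88.8, 102 and 93.5 CPM in control libraries. The knockdown-labelled values were the lowest 3 and the control values the highest 3 (knockdown-labelled against control -0.49 ± 0.110, edgeR adjusted p = 0.0802). CCNE2 (0.43), PCNA (0.30) and ORC6 (0.29), whose values are above, were higher in each knockdown-labelled than in each control library and did not pass. RFC3, a clamp loader subunit, had 37.2, 48.2 and 46.6 CPM in rescue, 65.5, 54.99 and 46.1 CPM in knockdown-labelled and 39.1, 33.9 and 43.8 CPM in control libraries (0.51 ± 0.163). Its knockdown-labelled values were above all control values and overlapped with rescue. MCM7 had 332, 324 and 323 CPM in rescue, 275, 265 and 288 CPM in knockdown-labelled and 345, 342 and 343 CPM in control libraries, and FEN1 had 72.4, 70.4 and 73.03 CPM in rescue, 67.3, 66.2 and 69.2 CPM in knockdown-labelled and 80.1, 83.7 and 76.3 CPM in control libraries. Both were lowest in the knockdown-labelled libraries (MCM7 -0.32 ± 0.108, FEN1 -0.24 ± 0.098). POLD1, the catalytic subunit of the lagging-strand polymerase delta, had 51.1, 45.5 and 45.1 CPM in rescue, 46.2, 29.1 and 41.7 CPM in knockdown-labelled and 57.6, 60.8 and 46.5 CPM in control libraries (-0.50 ± 0.174), with knockdown-labelled below control but overlapping with rescue. GINS2 had 20.2, 25.2 and 27.2 CPM in rescue, 51.4, 39.1 and 24.3 CPM in knockdown-labelled and 26.2, 24.9 and 25.5 CPM in control libraries (0.58 ± 0.232). Its knockdown-labelled libraries 1 and 2 were the highest 2 of the 9 and library 3 lay below the controls. CDT1 (-0.43), MCM5 (-0.34) and LIG1 (-0.26) made up the 12 genes of smallest p, and the edgeR adjusted p of these 12 ran from 0.0802 for E2F1 to 0.224 for LIG1.

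The 3 knockdown-labelled libraries disagreed over this gene list. Set against the mean of the controls, the 10 licensing genes had a median of -0.34, -0.36 and 0.12 in libraries 1, 2 and 3, and the 8 clamp, loader and RPA genes 0.43, 0.31 and 0.15. Without library 3, 28 of the 47 genes passed: 10 higher (21.3%, near the 18.1% of all genes tested in that fit) and 18 lower (38.3%, against 14.8%). With library 3 as the only one of its group, 4 did, in a fit that assumes the lone library to vary like the other groups: 2 higher (4.26%, against 2.34%) and 2 lower (4.26%, against 9.07%). For 20 of the 47 genes the sign differed between these fits. PRIM1 and TK1 passed in both in opposite directions; they and the other genes in this paragraph were named after their values were seen. PRIM1, the catalytic primase subunit, had 10.1, 8.92 and 28.2 CPM in knockdown-labelled libraries 1, 2 and 3, against 15.6, 15.3 and 11.6 CPM in control libraries. Its log2 fold change against control was -0.58 without library 3 (edgeR adjusted p = 0.0335) and 0.97 with library 3 alone (edgeR adjusted p = 0.00770). TK1 had 358, 353 and 187 CPM in knockdown-labelled libraries 1, 2 and 3, against 254, 265 and 259.8 CPM in control libraries. It was at 0.45 without library 3 (edgeR adjusted p = 0.000381) and at -0.50 with library 3 alone (edgeR adjusted p = 0.0115). RPA3, with 43.2, 40.4 and 18.3 CPM in the knockdown-labelled against 21.3, 20.5 and 24.2 CPM in the control libraries, and GINS2 were also high in libraries 1 and 2 only, while ORC1, CLSPN, RRM1 and MCM4 were low there and high in library 3. E2F1 was the gene that passed as lower in both fits (-0.44 and -0.61, edgeR adjusted p = 0.00217 and 0.00625).

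**Figure D4:**
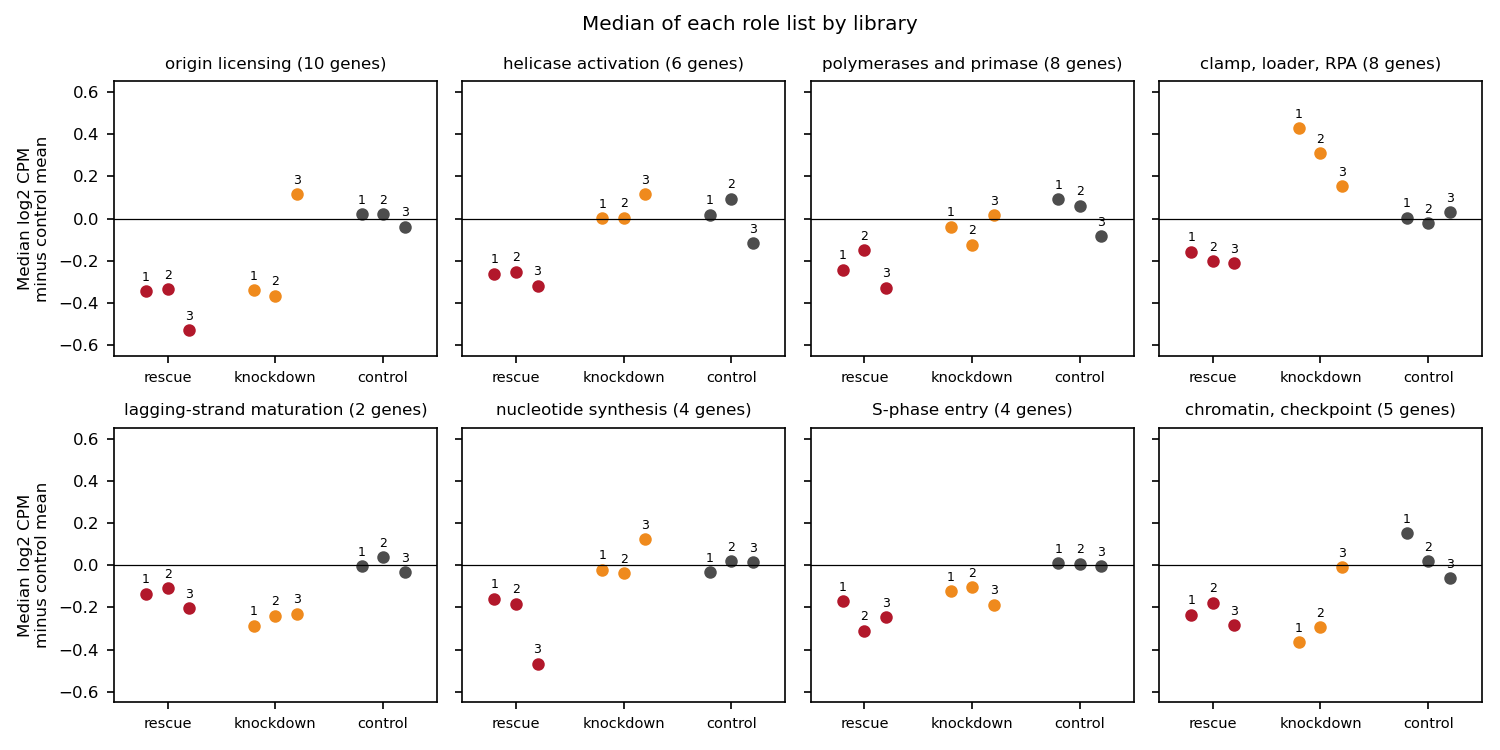
Median over each role list of the log2 CPM minus the control mean (y axis), 1 point per library with its replicate number, by group. Knockdown-labelled library 3 stands at 0.12 in the licensing panel, apart from libraries 1 and 2 at -0.34 and -0.36, while the 3 rescue points lie below 0 in each panel.

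Fold changes of the 47 genes followed the GC content of their longest transcript in the comparisons that use the knockdown-labelled libraries. Over the 47 genes, which share the same 9 libraries and are not independent, Spearman's rho between GC content and log2 fold change was 0.57 in rescue against knockdown-labelled, 0.03 in rescue against control and -0.68 in knockdown-labelled against control; over 16200 tested genes it was 0.28, 0.07 and -0.27. The trend differed between the knockdown-labelled libraries, each set against the control mean. Over the 47 genes rho was -0.42 for the mean of libraries 1 and 2 and -0.72 for library 3. Over 16200 tested genes it was -0.05 for libraries 1 and 2 and -0.54 for library 3. The 23 genes of lower GC content (36.9% to 48.1%) had a median of -0.51 in rescue against knockdown-labelled and held 9 of the 11 calls. The 24 of higher GC content (48.2% to 64.97%) had a median of -0.04 and held 2. In knockdown-labelled against control the medians were 0.21 and -0.23, and in rescue against control -0.29 and -0.25. Correcting for length and GC content left 5 calls in rescue against knockdown-labelled cells, ORC6, CDC6, PCNA, CCNE2 and CHAF1B, all lower (10.6%, against 3.3% of all tested genes). In rescue against control it left 1 call, ORC6 (-0.62, edgeR adjusted p = 0.0461), where the fit as run had none. That was 2.13% of the 47 as lower, against 0.0417% of all tested genes.

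**Figure D5:**
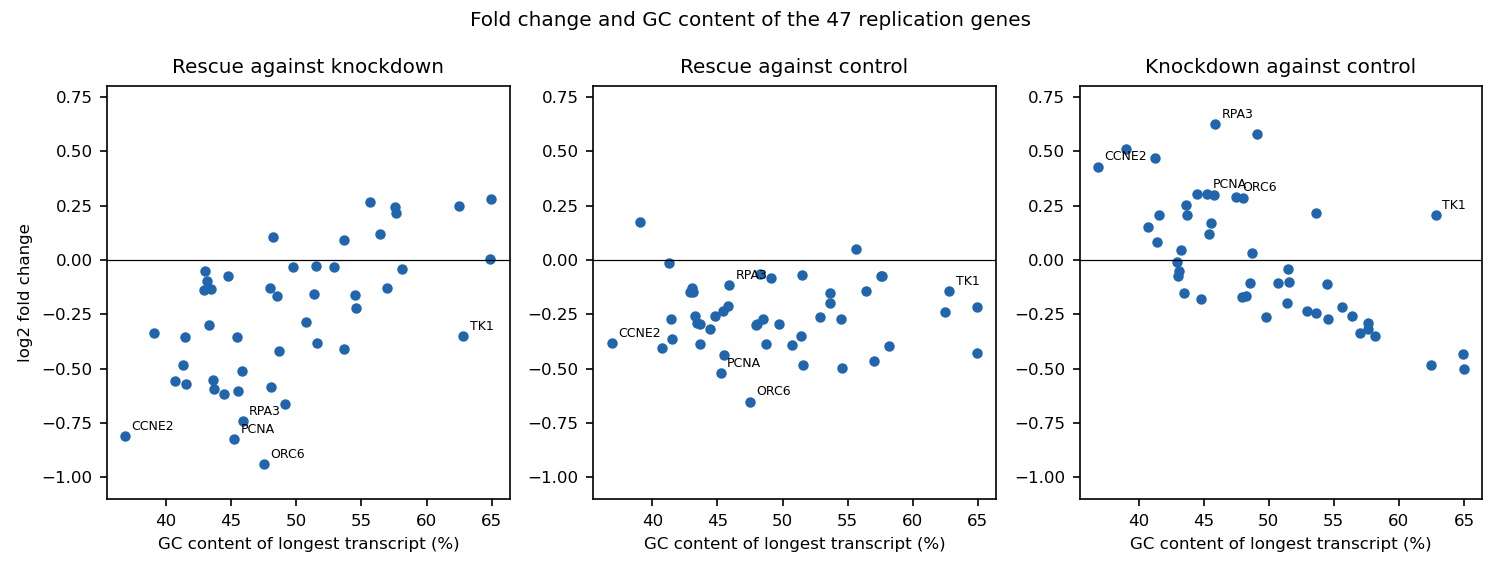
Log2 fold change (y axis) of the 47 genes against the GC content of the longest transcript in percent (x axis) in the 3 comparisons, with 5 genes named. The points climb with GC content in rescue against knockdown-labelled (rho 0.57), descend in knockdown-labelled against control (rho -0.68) and show no slope in rescue against control (rho 0.03).

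Other genes of replication and of the G1/S transition were read beside the list. Of 79 such genes 76 were tested, and in rescue against knockdown-labelled cells 6 fell (7.89%, near the 5.39% of all tested genes) and 0 rose. They were ORC3 (-0.78), a core origin recognition subunit, DBF4 (-0.75), the activator of the CDC7 kinase that fires origins, the nucleoside kinase gene DCK (-0.79), the histone chaperone gene ASF1A (-0.89), the cyclin A gene CCNA2 (-0.53) and the repressive E2F gene E2F5 (-0.88). DBF4 had 30.8, 33.3 and 35.4 CPM in rescue, 54.4, 61.5 and 51.6 CPM in knockdown-labelled and 42.2, 48.8 and 45.6 CPM in control libraries, with the groups fully separate and rescue lowest (edgeR adjusted p = 0.00909). ORC3 had 27.2, 37.2 and 26.5 CPM in rescue, 49.5, 57.6 and 49.1 CPM in knockdown-labelled and 37.03, 39.5 and 44.4 CPM in control libraries. DCK had 22.1, 29.5 and 25.04 CPM in rescue, 42.7, 45.6 and 44.1 CPM in knockdown-labelled and 30.97, 27.5 and 32.3 CPM in control libraries. For both genes the knockdown-labelled values were the highest 3, and rescue overlapped with control. ASF1A had 15.4, 17.8 and 21.7 CPM in rescue, 36.7, 38.3 and 26.3 CPM in knockdown-labelled and 23.99, 20.9 and 19.9 CPM in control libraries. CCNA2 had 34.5, 34.5 and 45.5 CPM in rescue, 53.4, 59.1 and 52.3 CPM in knockdown-labelled and 37.4, 43.7 and 42.6 CPM in control libraries. Both showed the same order. E2F5 had 36.4, 43.2 and 45.01 CPM in rescue, 80.3, 94.3 and 54.3 CPM in knockdown-labelled and 47.5, 57.6 and 46.8 CPM in control libraries, with rescue below all others and knockdown-labelled overlapping with control. In rescue against control 0 of the 76 passed and 59 were negative, and in knockdown-labelled against control 0 passed. CDKN1A, which encodes the cell cycle inhibitor p21, had 3.10, 3.41 and 3.87 CPM in rescue, 3.10, 2.65 and 1.31 CPM in knockdown-labelled and 1.75, 2.96 and 3.69 CPM in control libraries; the groups overlapped (rescue against knockdown-labelled 0.56, edgeR adjusted p = 0.382). Of 30 genes of G2 and mitosis 29 were tested, and 9 fell in rescue against knockdown-labelled cells (31.0%, against 5.39% of all tested genes), with a median of -0.41. In that comparison 26 were negative and 3 positive: CDC25B (0.10), MKI67 (0.25) and PRC1 (0.52), of which 0 passed. PRC1 held only 3 to 23 counts in a library. In rescue against control all 29 were negative and 0 passed. CCNB1, the mitotic cyclin gene, named after its values were seen, had 113, 107 and 112 CPM in rescue, 225, 201 and 168 CPM in knockdown-labelled and 145, 147 and 130.1 CPM in control libraries, with rescue below all others. Without knockdown-labelled library 3, 22 of the 77 other replication genes tested fell and 7 rose in rescue against knockdown-labelled cells, and 15 of the mitotic genes fell and 2 rose, where 20.4% of all genes tested fell and 18.6% rose. With library 3 as the only knockdown-labelled library, the median was -0.24 for the other replication genes and -0.49 for the mitotic genes.

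Some of these counts may lack reads shared with other genes, because reads recorded as ambiguous or not unique were left out. The counting settings are not given in full, so some counts may also hold reads of other genes. Shared stretches of 100 bases were sought in the longest transcript of each gene in GENCODE release 29. Of these stretches, 52.5% for POLA2, 27.5% for RRM2, 20.7% for UHRF1, 19.3% for PRIM1, 13.4% for PRIM2, 9.57% for POLD1 and 3.00% for ORC6 also occurred in another gene. The strand setting of the counting was not among the sources read, and genes on the opposite strand cover 39.1% of exon bases of TYMS, 37.0% of CCNE2, 22.7% of MCM2, 21.2% of GINS4, 14.5% of CDK2, 10.9% of GINS3 and 8.94% of MCM7, so reads of these pairs cannot be told apart without strand.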

How the data were processed

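RNA was sequenced from 9 LAPC4 samples in 3 groups of 3. The deposited values are whole-number counts per gene, 60325 genes per library. The reads had been handled with STAR and HTSeq, after FastQC and cutadapt, on hg38, per the submitters' processing notes. Versions, annotation and strand setting: not given in the sources used here. Rows that name no gene (no feature 43.7% to 48.7% of reads with a row, ambiguous 2.36% to 3.14%, not unique 7.67% to 11.6%) were left out. The 47 genes and all other lists were chosen with earlier results of these data known. Genes passing filterByExpr (minimum count 10) were scaled by TMM and tested over all 9 libraries with edgeR 4.0.16 (R 4.3.3) by its quasi-likelihood F test, 6 residual degrees of freedom, two-sided, with Benjamini-Hochberg adjustment over 16796 genes and a threshold of 0.05. Intervals are 95%. Levels are TMM-scaled counts per 1000000 (CPM), and log2 CPM uses a prior count of 2. Genes named with every library value were, per comparison, the 12 members of smallest p, the member of smallest p in each role list in rescue against knockdown-labelled, UGT2B28, CDKN1A and up to 6 other replication genes per direction that passed; exceptions are marked. Other members are named with a log2 fold change. GC content and length came from GENCODE release 29 on GRCh38 (55724 symbols matched, 96.5% of tested genes), with a loess span of 0.3 for their correction. Alternatives used limma 3.58.1 and DESeq2 1.42.0. The procedure was tested on simulated data. No libraries agreed within sampling noise (chi-square per degree of freedom 2.15 or more within groups).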

Additional observations from a re-analysis of the deposited data

How the results depend on the processing

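Rescue against knockdown-labelled calls numbered 11 as run. They numbered 3 without scaling factors, 23 with voom quality weights, 3 with the replicate block, 5 with length and GC correction, 17 without knockdown-labelled replicates 1 and 2, 0 with the 2 compared groups only, 3 at an adjusted p of 0.01 and 3 to 22 leaving out 1 library (22 without knockdown-labelled replicate 3). The median of -0.22 became -0.0037 without scaling factors, -0.10 with quality weights, -0.31 without replicates 1 and 2, and -0.28 to -0.10 leaving out 1 library. Over all genes, 745 rose and 906 fell as run, against 1327 and 230 without scaling factors. With quality weights, 5 members were higher (10.6%, against 20.2% of all tested genes) and 18 lower (38.3%, against 21.5%). With the replicate block, the 3 members were lower (6.38%, against 1.3% of all tested genes). LIG1 reversed to -0.10 under length and GC correction.

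Rescue against control calls numbered 0 as run, 1 without a low-count filter, 3 by DESeq2, 12 with quality weights, 1 with length and GC correction, 10 without knockdown-labelled replicates 1 and 2, 10 with 2 groups only, 2 at 0.1 and 0 to 10 leaving out 1 library. The 12 with quality weights were all lower (25.5%, against 3.46% of all tested genes, while 6.01% were higher). The 1 without a low-count filter was lower (2.13%, against 0.208% of all genes tested in that fit). The median of -0.27 spanned -0.31 to -0.23 leaving out 1 library. Knockdown-labelled against control calls numbered 0 as run, 1 without scaling factors, 1 without a filter, 4 by DESeq2, 30 with quality weights, 4 without replicates 1 and 2, 1 at 0.1 and 0 to 28 leaving out 1 library. With quality weights, 9 members were higher (19.1%, against 21.0% of all tested genes) and 21 lower (44.7%, against 17.8%). By DESeq2, 2 were higher (4.26%, against 3.41%) and 2 lower (4.26%, against 2.52%). The 1 without a filter was higher (2.13%, against 2.09%), and the 1 without scaling factors was lower (2.13%, against 0.839%). For the counts at 0.1 in both comparisons, no share of all tested genes is given. The median of -0.05 became -0.26 without scaling factors, 0.039 without replicates 1 and 2, and -0.15 to -0.0053 leaving out 1 library. GINS2 reversed to -0.10 there without replicates 1 and 2. Apart from what these alternatives' construction shows (fewer samples, a stricter threshold), the cause was not tested.

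Replicate numbers are in the titles only and did not pair the libraries: 0 of 9 same-numbered pairs had a correlation of deviations above 0.1, and 1 of 9 libraries correlated best with its own number. With the replicate block the other comparisons had 0 calls. With 3 libraries a group and 6 residual degrees of freedom, calls near the threshold depend on single libraries.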
